A study of Mus musculus with 16 samples.

Results

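The genes described here are the 10 that encode the enzymes placing or removing N6-methyladenosine (m6A) on RNA, together with the partner proteins of the main writing enzyme. They were chosen by name, with earlier results of these data known. They are the rows of the deposited tables whose gene ID belongs to Mettl3, Mettl14, Mettl16, Wtap, Virma, Zc3h13, Cbll1, Rbm15, Alkbh5 or Fto. All 10 were found among 55414 gene IDs. m6A is a methyl group on the base of selected adenosines in messenger and other RNAs. Mettl3 and Mettl14 form the core of the writing complex, Wtap, Virma, Zc3h13, Cbll1 and Rbm15 anchor and steer it, Mettl16 writes on its own, and Alkbh5 and Fto take the mark off. Reader proteins then bind the mark, among them YTHDC2, an RNA helicase that male germ cells need for meiosis.

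The tissue was whole mouse testis at postnatal day 14 (P14) or 16 (P16), when the first wave of germ cells is in meiotic prophase. RNA was sequenced from 16 libraries of 3 genotypes: control, Cre control and Ythdc2 cKO, the conditional knockout. Per the labels' protocols, mice of all 3 genotypes had received tamoxifen (10 mg/ml) on P12 and P13, so every library comes from a treated animal. Controls and cKO replicates 1 and 2 of each stage were depleted of ribosomal RNA with a Ribo-Zero kit (8 libraries, 2 per group). Cre controls (2 at P14, 4 at P16) and 1 further cKO library per stage, replicate 3, were depleted with a NEBNext kit (8 libraries). Kit and type of control therefore cannot be told apart. The labels do not name the Cre driver, strain or further alleles, and the column names call the control libraries WT. No label says that replicates are separate animals, so the tests measure the spread between libraries, which may be technical.

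Libraries held 22220565 to 27531529 reads on genes with the Ribo-Zero kit and 14494867 to 23200252 with the NEBNext kit. The members had 363 to 6001 reads per library, and the counting error of these reads is part of the spread between libraries. Ythdc2 itself was lower in every cKO library: at P16 its normalized value was 2666 and 2609 in the controls and 502 and 541 in cKO replicates 1 and 2, and with the NEBNext kit it was 226 in cKO replicate 3 against 1392 to 2633 in the Cre controls. Markers of spermatogonia, early meiotic prophase and Sertoli cells were above 0 in every library.

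Levels can be compared between genes only per length, here as RPKM, the reads per kilobase of exon scaled to the reads on genes of the library. The length was that of all annotated exons of a gene merged, from 4007 bases in Cbll1 to 13817 in Mettl16. Which exons were used in this tissue was not tested, so the order of genes depends on that choice. On this scale Alkbh5, an eraser, was the highest member with both kits, with a median of 36.4 over the 8 Ribo-Zero libraries and 43.1 over the 8 NEBNext libraries. Virma, the large scaffold subunit of the writing complex, came next at 25.3 and 24.8. Mettl14, the RNA-binding member of the writer core, was the lowest with both kits, at 5.21 and 4.06. Its catalytic partner Mettl3 was at 6.21 and 6.25. Both core genes were thus below every one of the 5 cofactors by median, with both kits.

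The order in between was Rbm15 (15.8 with the Ribo-Zero kit), Wtap (14.01), Cbll1 (11.3), Zc3h13 (9.90), Mettl16 (7.18), Mettl3 and Fto (5.67). With the Ribo-Zero kit the lowest Alkbh5 library (27.5) was above the highest Virma library (26.0), and the lowest Virma library (24.9) was above the highest Rbm15 library (16.5). Each later neighbour overlapped the one before it, except that the highest Fto library (5.85) was just below the lowest Mettl3 library (5.89). With the NEBNext kit the first 6 genes kept their order, and Fto, at 8.16, ranked above Mettl3 and Mettl16 (4.95).

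**Figure D1:**
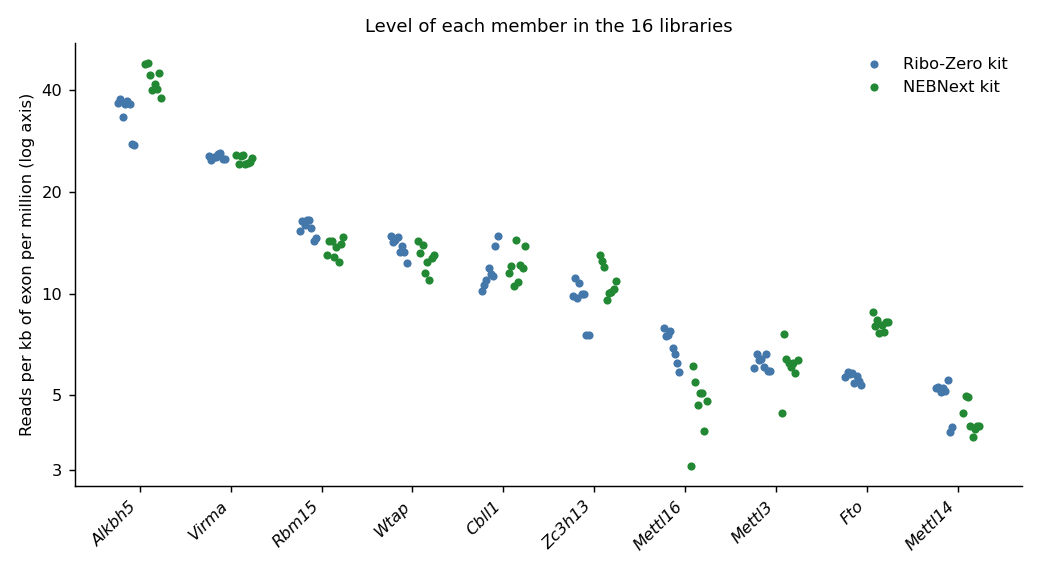
RPKM (log axis) of each member in the 8 Ribo-Zero libraries (blue) and the 8 NEBNext libraries (green), with 1 point per library and genes ordered by their Ribo-Zero median. Alkbh5 and Virma stand above the rest with both kits, and Virma is the tightest, with its highest library 1.04 times its lowest with the Ribo-Zero kit.

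Virma also varied least across stages and genotypes: its highest library was 1.04 times its lowest with the Ribo-Zero kit and 1.06 times with the NEBNext kit. The widest Ribo-Zero ranges were those of Zc3h13 (1.48 times), Cbll1 (1.45 times), Mettl14 (1.43 times) and Alkbh5 (1.37 times). With the NEBNext kit the widest were Mettl16 (1.98 times) and Mettl3 (1.70 times), and both had their lowest library in Cre control P14 replicate 1. In the P14 Cre table, Mettl3 was 418 there against 686 in Cre control replicate 2, and Mettl16 was 793 against 1507. These are deposited normalized values, meaning reads divided by a library factor set within each table, and all further values by library are on that scale.

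At P16, cKO against control with the Ribo-Zero kit, 5 of the 10 members fell and 1 rose. The 3 large falls were in Mettl14, Zc3h13 and Alkbh5, one from each of the core, the cofactors and the erasers, each to about the same level: 74.1%, 76.1% and 75.3% of the control mean. Cbll1, a cofactor that carries a RING-type ubiquitin ligase fold, rose to 126.9%. Mettl16 and Rbm15 fell by less, to 89.95% and 90.5%. Mettl3, Wtap, Virma and Fto did not pass the test (Mettl3 93.1%, Wtap 94.7%, Virma 97.0% and Fto 97.9% of the control mean).

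Those 6 calls stand against a large background: 38.6% of the 17986 genes tested passed, 18.6% as higher and 19.9% as lower. The test was limma on log2(value + 1), and a gene was called at an adjusted p (Benjamini-Hochberg over all genes tested) under 0.05. The median change over the 10 members was -0.12 (log2), and over all genes tested it was -0.00050. The groups did not overlap for 8 of the 10 members, all but Wtap and Fto. The same held for 69.7% of all genes tested here, and for 29.6% at P14 with groups of the same size.

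Mettl14 had values of 994 and 1073 in the controls and 755 and 778 in cKO replicates 1 and 2. Both cKO libraries were below both controls, by a log2 change of -0.43 (SE 0.06, adjusted p = 0.000240, limma). Mettl3, which pairs with it in the enzyme, had 801 and 878 in the controls and 783 and 779.9 in the cKO libraries. Its groups were apart by less than the controls differed between themselves, and its change of -0.10 (SE 0.07) had an adjusted p of 0.261 (limma). The number of Mettl14 reads per Mettl3 read was 1.241 and 1.222 in the P16 controls and 0.964 and 0.997 in the cKO libraries. At P14 it was 1.17 and 1.27 in the controls and 1.18 and 1.20 in the cKO libraries. The P16 ratios did not overlap, but an exact permutation test of 2 against 2 cannot give a two-sided p below 0.333, which is what it gave.

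Alkbh5, which removes m6A in the nucleus and is needed for male fertility in mice, had 5772 and 5672 in the P16 controls and 4319 and 4295 in the cKO libraries. The gap between groups was far wider than the spread within either, and the log2 change was -0.41 (SE 0.04, adjusted p = 1.17e-05, limma). Fto, the other eraser, had 1841 and 1929 in the controls and 1873 and 1820 in the cKO libraries. Its groups overlapped, and the 95% interval of its log2 change ran from -0.14 to 0.08. Alkbh5 reads per Fto read were 3.13 and 2.94 in the P16 controls and 2.31 and 2.36 in the cKO libraries, again without overlap and again at the smallest exact two-sided permutation p of 0.333.

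Among the cofactors, Zc3h13, which keeps the complex in the nucleus, had 1627 in each control and 1241 and 1235 in the cKO libraries. The libraries of a group hardly differed, and the log2 change was -0.39 (SE 0.05, adjusted p = 9.74e-05, limma). Cbll1 had 1185 and 1174 in the controls and 1444 and 1549 in the cKO libraries. Both cKO libraries were above both controls, with a log2 change of 0.34 (SE 0.06, adjusted p = 0.000506, limma). This call was lost by eBayes without trend, and with both kits and kit as a covariate. The pair moved in opposite directions, and Cbll1 reads per Zc3h13 read were 0.728 and 0.722 in the controls against 1.16 and 1.26 in the cKO libraries. The exact two-sided permutation p was again the smallest possible, 0.333.

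Rbm15, an RNA-binding cofactor that brings the complex to its sites, had 3186 and 3015 in the controls and 2774 and 2836 in the cKO libraries. Its change of -0.14 (SE 0.05) had an adjusted p of 0.0293 (limma), and the call held under 9 of 15 alternatives. It was lost without control replicate 1 or without control replicate 2, as well as under DESeq2. Other losses were without a filter, by eBayes without trend, and with both kits and kit as a covariate (log2 change -0.016). Mettl16, which methylates U6 snRNA and the Mat2a transcript, had 2472 and 2374 in the controls and 2244 and 2116 in the cKO libraries. Its change of -0.15 (SE 0.05) had an adjusted p of 0.0305 (limma), and the call held under 7 of 15 alternatives. It was lost without control replicate 1, control replicate 2 or cKO replicate 2, and under DESeq2. Other losses were without a filter, by quantile normalization, by eBayes without trend, and with both kits (log2 change -0.07). Wtap, which holds the core on nuclear speckles, had 2155 and 2248 in the controls and 2165 and 2006 in the cKO libraries, which overlapped. Virma had 4782 and 4828 in the controls and 4657 and 4669 in the cKO libraries, a change of -0.04 with a 95% interval from -0.13 to 0.05.

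**Figure D2:**
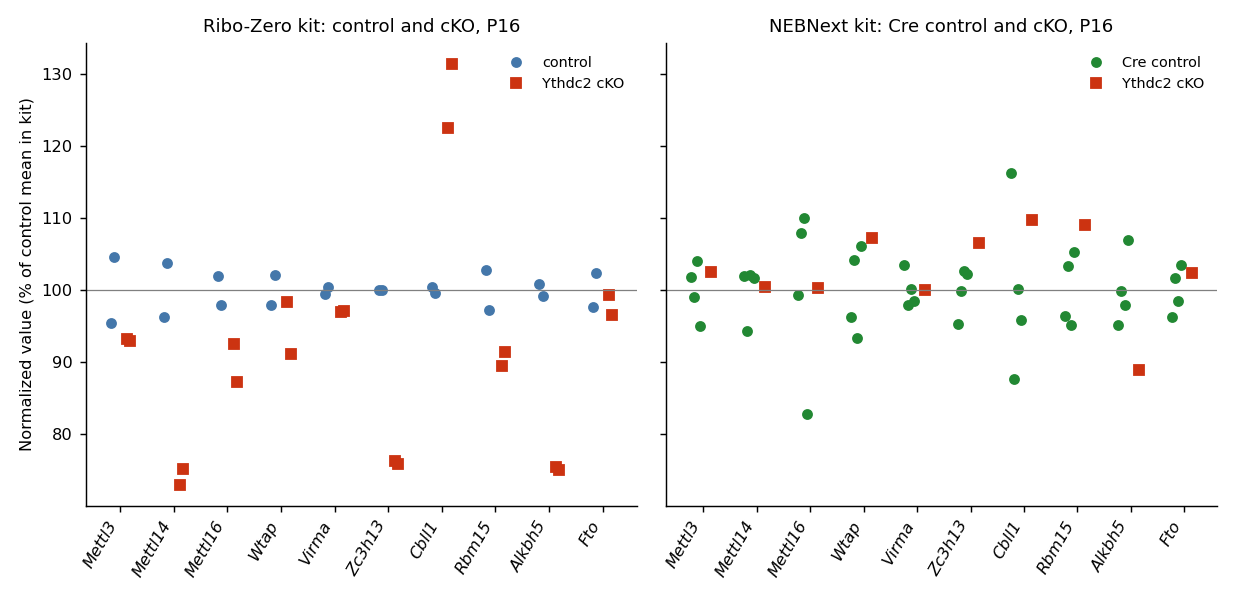
Normalized value of each member at P16 as a percent of the control mean of the same kit, with 1 point per library. With the Ribo-Zero kit (left), both cKO libraries of Mettl14, Zc3h13 and Alkbh5 are near 75% and those of Cbll1 above 120%. With the NEBNext kit (right), the single cKO library lies below the 4 Cre controls only for Alkbh5, and above them for Wtap, Zc3h13 and Rbm15.

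Cell type markers moved with these changes. Of 10 spermatogonial markers, 9 fell at P16 in cKO against control, and the sum of their values was 14851 to 15267 in the cKO libraries against 20447 to 20704 in the controls. Of 10 markers of early meiotic prophase, 9 fell (42020 to 45212 against 57519 to 59929). Of 10 Sertoli markers 8 rose (122974 to 136650 against 101832 to 107195), as did 5 of 5 macrophage markers (3339 to 3423 against 2469 to 2603). Of the 9 pachytene markers tested 4 rose and 1 fell. Of the others, 3 of 6 Leydig, 2 of 4 endothelial and 1 of 4 peritubular myoid markers tested rose. Beside these counts, 38.6% of all genes tested were called. No germ cell, Sertoli or macrophage marker was at 0, while the Leydig marker Insl3 was at 0 in both cKO libraries and in a control library. Their part in the changes of the members was not tested. In whole tissue, fewer cells that express a gene and less RNA per cell cannot be told apart.

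At P14, 0 of the 10 members were called, and before adjustment 0 had a p under 0.05. Of all 17270 genes tested, 0.00579% were called, which is 1 gene, Ythdc2. DESeq2 also called 0 of the members. The log2 changes ran from -0.10 in Alkbh5 to 0.12 in Cbll1, with a median of -0.0072 over the members and 0.0090 over all genes tested. Groups did not overlap for Mettl14, Cbll1 and Alkbh5, which is 3 of 10 members beside 29.6% of all genes tested. Alkbh5 had 5285 and 5414 in the controls and 4833 and 5125 in the cKO libraries. Cbll1 had 986 and 1019.75 in the controls and 1065 and 1119.65 in the cKO libraries. Mettl14 had 941 and 948 in the controls and 923 and 917 in the cKO libraries, whose mean was 97.4% of that of the controls.

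Whether the cKO effect itself differed between P16 and P14 was tested as an interaction over the 8 Ribo-Zero libraries. It was called for 8.45% of the 17641 genes tested and for 2 of the 10 members, Mettl14 (difference of log2 changes -0.39, SE 0.09, adjusted p = 0.0287, limma) and Alkbh5 (-0.30, SE 0.06, adjusted p = 0.0212, limma). Zc3h13 had a difference of -0.35 (SE 0.09) with an adjusted p of 0.0507, and Cbll1 one of 0.22 (SE 0.09) with an adjusted p of 0.139. The Mettl14 call was lost without either control of P14, either control of P16 or either cKO library of P16, and the Alkbh5 call without the same 6 libraries, each left out in turn. Adjusted p-values over all alternatives ran from 0.0174 to 0.122 for Mettl14 and from 0.00494 to 0.116 for Alkbh5.

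**Figure D3:**
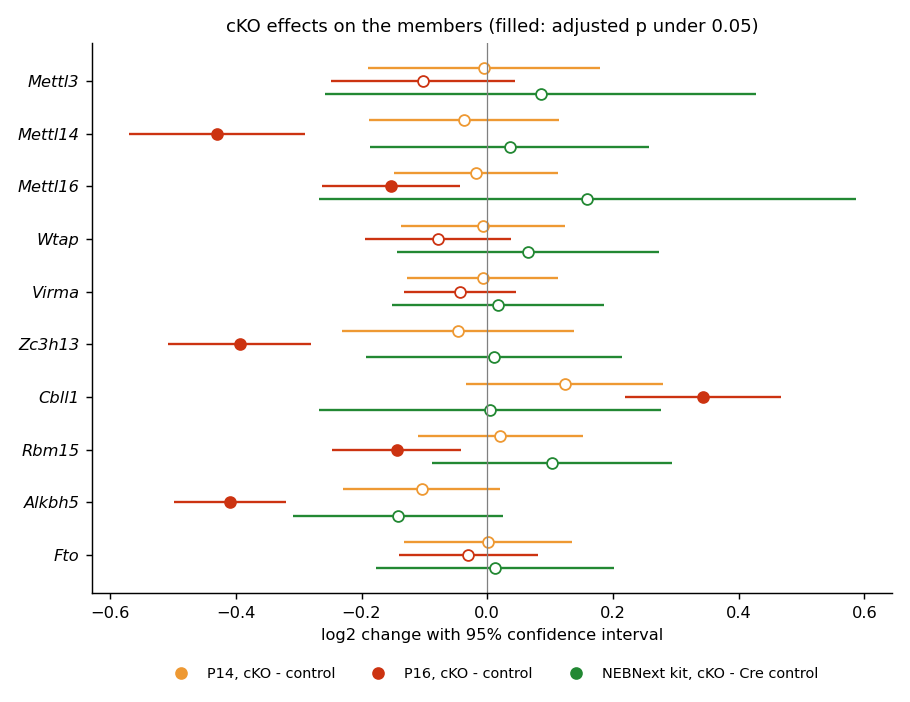
log2 change with its 95% confidence interval for each member in cKO against control at P14 and at P16 (both Ribo-Zero kit) and in cKO against Cre control within the NEBNext kit over both stages. Filled points have an adjusted p under 0.05, and they occur only at P16 against control.

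With the NEBNext kit, the cKO replicates 3 of both stages were compared with the 6 Cre controls, with stage as a covariate. None of the 10 members was called by limma, 0 had a p under 0.05 before adjustment, and DESeq2 also called 0. Of all 19172 genes 0.00522% were called, again 1 gene, Ythdc2. Alkbh5 had the only negative change, -0.14 (95% interval -0.31 to 0.02, adjusted p = 0.462, limma). Mettl14 was at 0.04 (95% interval -0.19 to 0.26), Zc3h13 at 0.01 (-0.19 to 0.21) and Cbll1 at 0.0040 (-0.27 to 0.28). For all 4 genes, Alkbh5 included, this interval does not reach the change measured at P16 with the other kit and control. The measures are not alike, since this fit covers both stages and rests on 2 cKO libraries. For Cbll1 the stages had opposite signs, with log2 differences of -0.20 at P14 and 0.14 at P16, each from 1 cKO library. The intervals therefore do not decide whether the P16 change differed between the kits.

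Per the column names, the NEBNext libraries came from 2 sequencing runs. Both cKO libraries, both Cre controls of P14 and Cre control P16 replicate 1 shared a run, and Cre control P16 replicates 2 to 4 were in the other. With run as a covariate the changes were -0.12 in Alkbh5, 0.02 in Mettl14, 0.0080 in Zc3h13 and -0.14 in Cbll1, and again 0 members were called.

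At P16 alone, with the Cre controls given from replicate 1 to 4, Alkbh5 was 4415 in the NEBNext cKO library and 4725, 4961, 4861 and 5309 in the Cre controls, so the cKO library was the lowest of the 5, also against replicate 1 of its own run, at 88.9% of the Cre control mean. Mettl14 was 588 in the cKO library and 597, 552, 597 and 595 in the Cre controls, inside their range. Zc3h13 was 1333 in the cKO library and 1192, 1249.7, 1284 and 1279.8 in the Cre controls, so here the cKO library was the highest. Cbll1 was 1079 in the cKO library and 1144, 862, 985 and 942 in the Cre controls, again inside their range. Rbm15 was 2129.5 in the cKO library and 1858 to 2056 in the Cre controls. The cKO library was the highest here, whereas Rbm15 fell against control. Wtap was 1585.5 in the cKO library, also the highest, with 1380 to 1570 in the Cre controls, while its groups overlapped with the other kit. Of these genes, only Alkbh5 thus lay on the same side of all controls with both kits. A single library can lie outside its controls by chance, and the share of all genes for which it did was not determined. At P14 Alkbh5 was 4692 in the NEBNext cKO library and 5317 and 5144 in the Cre controls, the lowest of the 3 there too. This was not particular to Alkbh5. Zc3h13 (1327 against 1399 and 1511) and Cbll1 (746 against 854 and 866) were also below both Cre controls at P14.

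The ratios show the same split. Alkbh5 reads per Fto read were 2.10 in the NEBNext cKO library at P16 and 2.38 to 2.50 in the Cre controls, the lowest of 5, at an exact two-sided permutation p of 0.2, the smallest that 1 against 4 allows. Mettl14 reads per Mettl3 read were 0.931 in the cKO library, inside the Cre control range of 0.905 to 1.02. That range also spans the 0.964 and 0.997 of the Ribo-Zero cKO libraries, although the kits differ. Cbll1 reads per Zc3h13 read were 0.809 in the NEBNext cKO library at P16, inside the Cre control range of 0.690 to 0.959. In the same library 9 of 10 early meiotic markers were below the Cre control mean (median log2 difference -0.39), as were 6 of 9 pachytene markers (median -0.18). Sertoli markers were above it in 9 of 10 cases (median 0.16), macrophage markers in 5 of 5 (0.22) and spermatogonial markers in 6 of 10 (0.067). Their part was not tested.

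**Figure D4:**
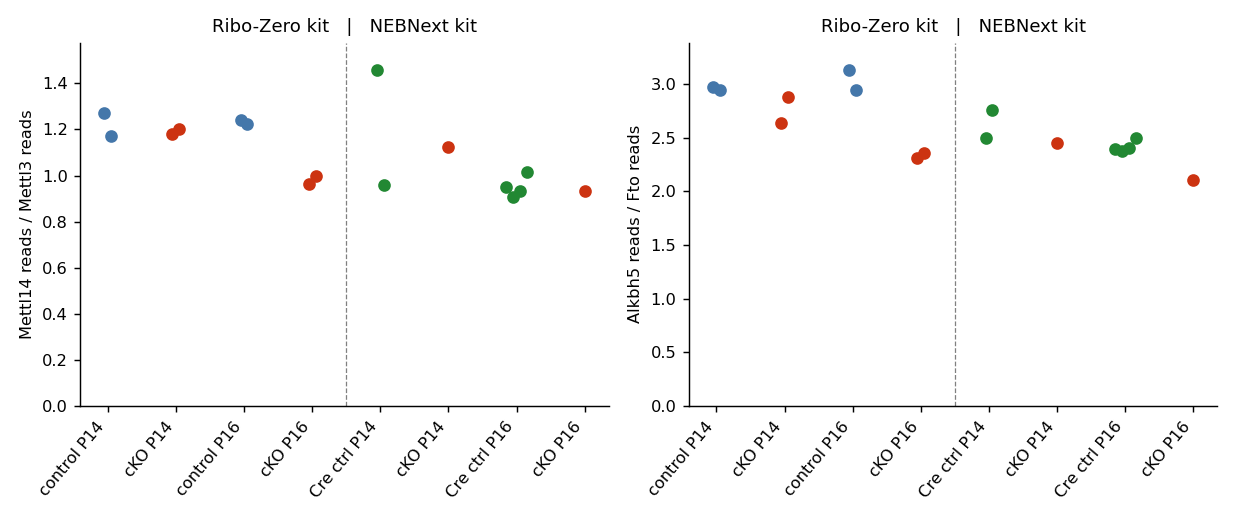
Reads of Mettl14 per read of Mettl3 (left) and of Alkbh5 per read of Fto (right) in each library, by genotype and stage, with Ribo-Zero libraries before the dashed line and NEBNext libraries after it. Both ratios are lowest at P16 in the cKO among Ribo-Zero libraries (0.964 and 0.997 on the left, 2.31 and 2.36 on the right), and on the left the P16 Cre controls are as low.

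A fit of both P16 tables together on recovered reads, with kit as a covariate, called 14.2% of 19328 genes and 1 of the 10 members, Alkbh5 (log2 change -0.29, SE 0.07, adjusted p = 0.0177, limma). Cbll1 was at 0.26 (SE 0.09, adjusted p = 0.0686), Mettl14 at -0.23 (SE 0.10, adjusted p = 0.127) and Zc3h13 at -0.17 (SE 0.09, adjusted p = 0.239). The same fit at P14 called 0.00536% of 18644 genes, with 467 at an unadjusted p under 0.05. Alkbh5 was not called there, with a log2 change of -0.13 (SE 0.05, unadjusted p = 0.0246, adjusted p = 0.991, limma). Whether the cKO effect differed between kits was not tested.

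The deposited tables that set 3 cKO libraries against the Cre controls mix the kits, since 2 of the 3 cKO libraries are Ribo-Zero libraries. At P14 the test called 0% of 18196 genes (705 at an unadjusted p under 0.05, 5 by DESeq2) and 0 of the members (0 at an unadjusted p under 0.05 and 0 by DESeq2). At P16 it called 9.07% of 19200 genes and 0 of the members, with 2 at an unadjusted p under 0.05, Alkbh5 and Rbm15. These went in opposite directions: Alkbh5 was lower in the cKO, and Rbm15 was higher, at 115.0% of the Cre control mean. Against control, Rbm15 had been lower. Alkbh5 came nearest, with a change of -0.38 (SE 0.10, adjusted p = 0.0518, limma), and DESeq2 called 2 members beside 21.8% of all genes. Without cKO replicate 3, the cKO library of the same kit as its controls, 6 members were called at P16 beside 49.2% of all genes, and 4 at P14 beside 34.8%. Fto was 1534 and 1500.2 in the cKO replicates 1 and 2 of this table, 2100.4 in replicate 3 and 1976 to 2124 in the Cre controls. Mettl16 was 1838 and 1744 in replicates 1 and 2, 1296 in replicate 3 and 1071 to 1421 in the Cre controls. For both genes the libraries parted by kit, and the cKO library of the NEBNext kit lay within the Cre controls.

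From P14 to P16, 1 member changed in the controls and 6 in the cKO, in a fit of the 8 Ribo-Zero libraries. In the controls, where 20.9% of 17641 genes were called, only Mettl16 was, with a fall of 0.18 on the log2 scale (SE 0.05, adjusted p = 0.0331, limma). Alkbh5 (-0.0034), Mettl14 (0.03) and Zc3h13 (-0.06) kept within their error in the controls. In the cKO, where 31.5% of genes were called, Zc3h13 fell by 0.41, Mettl14 by 0.36, Mettl16 and Alkbh5 by 0.31 each and Wtap by 0.16, and Cbll1 rose by 0.36. The Wtap call (adjusted p = 0.0446, limma) was lost when any 1 of the 8 libraries was left out, and the Mettl16 call in the controls without control P14 replicate 1 or either control of P16. The other 5 cKO calls held under every alternative tried, with adjusted p-values of 0.0231 or less.

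In the Cre controls, with the NEBNext kit, 11.6% of 19172 genes changed from P14 to P16 and 1 member did. Zc3h13 fell by 0.33 (SE 0.09, adjusted p = 0.0453, limma), a call lost when any 1 of the 6 Cre control libraries was left out and with the sequencing run as a covariate. Mettl14 had a change of -0.23 (SE 0.11, adjusted p = 0.219) and Alkbh5 one of -0.19 (SE 0.08, adjusted p = 0.169). By value, these 3 genes were thus lower at P16 in the Cre controls and in the cKO, and near 0 in the controls without that label. Cell type markers moved between the stages as well. Spermatogonial markers had a median change of -0.56 in the Cre controls (4 of 10 fell), -0.48 in the cKO (8 of 10 fell) and -0.11 in the controls (3 of 10 fell). Early meiotic markers had medians of -0.071, -0.29 and 0.13 in the same order, and 9 of 9 pachytene markers tested rose in each. Their part in the changes of the members was not tested. The difference between the 2 kinds of control in this change of the members was not tested, and kit cannot be told apart from it.

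**Figure D5:**
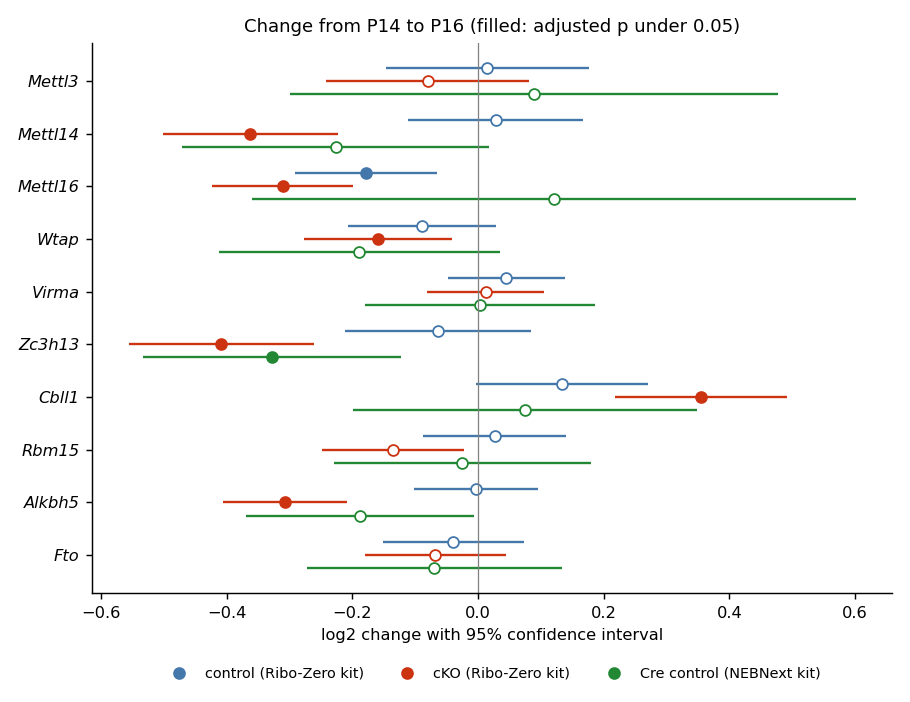
log2 change from P14 to P16 with its 95% confidence interval for each member in control and cKO libraries (Ribo-Zero kit) and in Cre controls (NEBNext kit). Filled points have an adjusted p under 0.05: 1 in the controls (Mettl16), 6 in the cKO and 1 in the Cre controls (Zc3h13).

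Likeness between genes was described over the 8 Ribo-Zero libraries, the same libraries in which the P16 changes were measured. It was taken as the root mean square difference of log2 CPM after centring each gene on its own mean. Mettl14 and Alkbh5 were 0.05 apart, and Alkbh5 and Zc3h13 0.06, while Mettl3 and Mettl14, the core pair, were 0.14 apart. Of the pairs that include Mettl3, Mettl14, Alkbh5 or Fto, the closest was Mettl3 and Fto (0.04), neither of which was called at P16. Fto was also 0.05 from Virma and from Wtap. Mettl3 and Fto each varied little about their own mean (root mean square 0.06 and 0.04), so their small distance shows no shared pattern. In the NEBNext libraries they were 0.24 apart. There Mettl14 and Alkbh5 were 0.11 apart, Alkbh5 and Zc3h13 0.10, and Mettl3 and Mettl14 0.21. Among 11779 genes, Alkbh5 had rank 91 in likeness to Mettl14, and Mettl3 had rank 2508. In likeness to Mettl3, which varied little, Mettl14 had rank 5664. With the NEBNext kit Alkbh5 had rank 802 and Mettl3 rank 6433 in likeness to Mettl14, and Mettl14 had rank 3028 in likeness to Mettl3. The genes nearest to Mettl14 were Npat and Heatr1 (0.02 each), and those nearest to Alkbh5 were Slc4a1ap and Taf5 (0.02 each). Those nearest to Mettl3 were Dusp15 and Kif11 (0.03 each), and to Fto, Kdm4c and Ubxn7 (0.01 each). In the NEBNext libraries Slc4a1ap had rank 93 for Alkbh5 (0.07), whereas Kif11 had rank 7565 for Mettl3 (0.29).

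The start regions of some members called at P16 against control are shown so that they can be compared base by base. They are the 160 bases before the annotated start of Alkbh5 and Zc3h13, which fell at P16 against control, and of Cbll1, which rose. They come from RefSeq (build GRCm38.p6, not the build of the deposited tables), read 5′ to 3′ on the gene's strand, with matches to a searched motif in capitals.
Alkbh5, chr11:60537523-60537682, plus strand: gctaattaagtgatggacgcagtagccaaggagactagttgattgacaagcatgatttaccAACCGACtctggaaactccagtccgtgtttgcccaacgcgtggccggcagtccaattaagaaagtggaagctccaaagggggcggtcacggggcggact
Zc3h13, chr14:75284206-75284365, plus strand: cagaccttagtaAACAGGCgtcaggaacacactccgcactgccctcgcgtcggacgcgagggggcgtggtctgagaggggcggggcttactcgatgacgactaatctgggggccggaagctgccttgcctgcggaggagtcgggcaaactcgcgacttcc
Cbll1, chr12:31499617-31499776, minus strand: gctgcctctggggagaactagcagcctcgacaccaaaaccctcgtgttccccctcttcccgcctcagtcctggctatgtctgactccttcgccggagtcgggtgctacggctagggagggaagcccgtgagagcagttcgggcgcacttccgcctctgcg

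The capital stretches of Alkbh5 and Zc3h13 match the MYB motif (AACNGNC), 99 bases before the start in Alkbh5 and 148 in Zc3h13. The stretch of Cbll1 held no match. Windows of 300 bases (250 before the start) were found for 8 of the 10 members, and 3 of the 8, the third being Mettl3, held this motif on either strand, against 32.8% of all 32851 windows. The YY1 motif (GCCATNTT) was in 2 members, Mettl3 and Mettl16 (6.05% of all windows), the ETS motif (CCGGAAGT) in Mettl3 (3.89%), the NRF1 motif (CGCNTGCG) in Cbll1, after the start (8.21%), and the CRE motif (TGACGTCA) in none of the 8 (1.79%). The windows of the members held 17 to 48 CpG, above the median of 7 over all windows. A match is a description of these letters only.

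Genes around the m6A machinery were read from 2 further lists in cKO against control at P16. Of 12 other m6A reader genes, 3 rose and 7 fell, with a median log2 change of -0.12, where 38.6% of all genes tested were called and their median was -0.00050. Igf2bp3, which stabilises bound messages, rose by 0.74 (SE 0.06, adjusted p = 3.68e-06) and Rbmx, a splicing factor, by 0.31. Fmr1, a translational regulator, fell by 0.50 on the log2 scale and Ythdc1, the nuclear YTH reader, by 0.20. Of 8 genes for other adenosine methylation, 1 rose and 2 fell, with a median of -0.17, so the share called (3 of 8) was near that of all genes. Rbm15b, the close relative of Rbm15, rose by 0.19, while Mettl5 and its partner Trmt112, which methylate 18S ribosomal RNA, fell by 0.38 and 0.24. Within the NEBNext kit 0 genes of these 2 lists were called (2 readers and no other gene at an unadjusted p under 0.05).

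The exons of Mettl3 overlap those of Tox4 on the other strand, those of Cbll1 the antisense gene Gm29542, and those of Fto the genes Gm45427 and 4831440D22Rik, also on the other strand. The strand setting of the counting is not given in the sources used here, so reads of these members may include reads of the overlapping genes.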

How the data were processed

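The 4 deposited tables hold a signal that the authors made by dividing gene counts by a size factor, set separately in each table. Per the submitters' processing notes, Trim Galore, STAR, HTSeq and DESeq2 were used with build GRCm39 (mm39). Versions, annotation release and strand setting are not given in the sources used here. All 20 columns were matched to samples by name, with 0 unmatched. Whole reads were recovered from 100% of values (tolerance 0.01), and 4 summary rows, 53.4% to 63.0% of the column totals, were left out. Names came from GENCODE M21.

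Tests within a table used limma 3.58.1 (R 4.3.3, eBayes with trend) on log2(value + 1), for genes that reached 10 in 2 or more libraries. Fits within a kit used limma on log2 CPM (TMM, prior count 1, at least 0.5 CPM in 2 libraries). Log2 fold changes on these scales understate changes of low genes. edgeR 4.0.16 and DESeq2 1.42.0 on the recovered reads were among the alternatives. Scripts were tested on simulated data. Members and lists were chosen with earlier results of these data known. Genes named beside the members and Ythdc2 were at most the 2 largest called rises and 2 largest called falls of each list at P16, and the 2 nearest genes of Mettl3, Mettl14, Alkbh5 and Fto, among genes of at least 5 CPM. The result of 1 further gene list is not reported here.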

Additional observations from a re-analysis of the deposited data

Results flagged for a closer look

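Mettl14 was 552 in Cre control P16 replicate 2, far below the 595 to 597 of the other 3 libraries of its group; it was the only 1 of 10 members for which a library of the Cre controls at P16 stood apart by Dixon's test, and chance gives about 1 such result in 20 groups. The effect of the knockout with the Ribo-Zero kit differed between P16 and P14 for Mettl14 (difference of log2 changes -0.39) and for Alkbh5 (-0.30), by the interaction test in limma. In the NEBNext kit at P16, Mettl14 in the cKO library (588) lay inside the Cre controls, and Alkbh5 (4415) below them.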

How the results depend on the processing

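Of 1410 values of single members under the alternatives, 74 changed sign, none of them called in either setting. Of the called changes, that of Alkbh5 in cKO against control at P16 held under all 15 alternatives (log2 change -0.42 to -0.29), and those of Mettl14 and Zc3h13 under 14, the exception being both kits with kit as a covariate. The number of members called there (6) was 3 by eBayes without trend, 1 with both kits and 4 to 6 with a library left out. Against the Cre controls at P14 (0) it was 4 with the replicate block, which absorbs cKO replicate 3, and 0 to 4 with a library left out. At P16 (0) it was 1 with pseudocount 10, 1 with a minimum value of 50, 2 by DESeq2, and 0 to 6 with a library left out. From P14 to P16 in the controls (1) it was 0 without a filter, 0 without trend, 0 by DESeq2 and 0 to 1 with a library left out; in the Cre controls (1) it was 0 without a filter, 0 without trend, 0 with the run as a covariate and 0 to 1 with a library left out; in the cKO (6) it was 5 for each library left out. For the interaction (2) it was 0 without trend, 1 by DESeq2 and 0 to 3 with a library left out.

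Whether replicate numbers pair the libraries cannot be decided with 2 libraries per group. Deviations of same-numbered libraries correlated at 0.19 (control and cKO, P14), 0.089 (P16), -0.018 (controls of both stages) and 0.087 (cKO of both stages), with 2 pairs each. Against control at P16, 8200 genes were called with the replicate block and 6939 without it. With the replicate block, 6 members were called against control at P16, 0 at P14, 0 against Cre control at P16, 1 and 6 from P14 to P16 in controls and cKO, and 3 in the interaction.

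Over all genes, calls in cKO against control at P16 (6939) were 1806 without trend and 2738 with both kits. At P14 (1) they were 0 without a filter, 0 without trend, 6 by DESeq2, 5 with the block and 0 to 4 with a library left out. Against Cre control they were 5 by DESeq2 and 6966 with the block at P14 (0), and 0 to 6340 with a library left out; at P16 (1741) they were 3277 with pseudocount 10, 917 without a filter, 3094 by quantile normalization, 32 without trend, 4188 by DESeq2, 0 with the block, 1 with kit as a covariate and 0 to 9441 with a library left out. The P14 to P16 change had 2311 calls without trend in the controls (3691; 1682 to 4705 with a library left out), 3493 to 5411 with a library left out in the cKO (5559), and in the Cre controls (2228) 49 without a filter, 833 without trend and 814 to 2768 with a library left out. The interaction (1491) had 727 without a filter, 184 without trend, 2349 with the block and 287 to 3149 with a library left out. The NEBNext fit (1) had 0 without trend, 21 by DESeq2 and 0 to 4 with a library left out. The cause was not tested. Where an arm is left with 1 library, it is assumed to vary like the others.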
